A study of Mus musculus with 8 samples.

Results

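The T, B and NK lymphocyte genes are 36 genes out of 23361 mouse genes, taken by their symbol from a list that sets no limit on measured values. They comprise 17 T cell genes, 5 NK and cytotoxic genes and 14 B cell genes, and every one of the 36 symbols was present. Expression was measured by sequencing of polyA+ RNA from 5 cancers of the gastric squamous-columnar junction (SCJ), where the squamous forestomach meets the glandular stomach, and from the SCJ of 3 control stomachs. The labels give the cancers as Trp53-/-Rb1-/- and the controls as wild type. The cancers arose in Lgr5-eGFP-IRES-CreERT2 mice with loxP-flanked Trp53 and Rb1 alleles and the Ai9 reporter, and tamoxifen turned on Cre in Lgr5+ cells and marked their descendants with tdTomato. Tumor borders were drawn by tdTomato, and the controls came from mice of matched age. The labels do not say whether control mice carried the Cre allele or received tamoxifen. RNA came from whole tissue pieces in which lymphocytes were not separated from epithelium and stroma, so that fewer cells of a type and less RNA per cell cannot be told apart.

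T cells recognize antigen through a T cell receptor that signals by way of the CD3 chains, the kinases Lck and Zap70 and, depending on the class of T cell, the coreceptor CD4 or CD8. B cells use a membrane immunoglobulin that signals through Cd79a and Cd79b, and their identity depends on the transcription factor Pax5. NK cells and cytotoxic T cells kill target cells with perforin and granzymes. In the stomach lymphocytes lie scattered in the epithelium and the lamina propria, whereas lymph nodes, the spleen and tertiary lymphoid structures are densely packed with B and T cells.

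The values are FPKM (fragments per kilobase of transcript, scaled between libraries by a setting that is not given in the sources used here) rounded to whole numbers, so that levels of different genes are per length and low levels move in steps of 1. FPKM summed over all genes to between 403569 and 573858 in the cancers and to between 887141 and 992550 in the controls, and the number of reads behind each library is unknown. A value of 0 can be a failed estimate, since Pgc, the abundant pepsinogen of the stomach, was listed at 28832 in control 1 and at 0 in controls 2 and 3. Rb1 had FPKM of 4, 4, 5, 6 and 4 in cancers 1 to 5, against 9, 9 and 10 among the controls, and was lower in the cancers (log2 fold change -0.90 with a standard error, s.e., of 0.16, limma adjusted p = 0.0059), although its log2 fold change was -0.05 (adjusted p = 0.84) after each library was rescaled to the same sum. Trp53 had FPKM of 12, 22, 12, 30 and 12 in the cancers, against 16, 17 and 19 among the controls (log2 fold change -0.08 ± 0.33 s.e., limma adjusted p = 0.87), and after the same rescaling it was called higher (0.86, adjusted p = 0.020). A value for a whole gene does not resolve which exons were deleted. Cancer 1 carries the same label as the other cancers, and its neuroendocrine markers summed to 15922, within the 8251 to 18554 of the other cancers, but its squamous markers summed to 2 and 5 gastric genes were listed at 0, which held for no other sample. Which tissue the piece held besides the cancer is not given by the labels and was not tested, so the comparison of the 5 cancers with the 3 controls is also given without cancer 1.

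Cancer 1 stood apart from the 7 other samples in its lymphocyte genes, which were high together there and low everywhere else. The FPKM of the 36 genes summed to 362 in cancer 1, while the sums were 8, 23, 18 and 8 for cancers 2 to 5 and 8, 10 and 13 for the 3 controls. Cancer 1 was therefore 15.7-fold above the next sample, cancer 3, while the other 4 cancers overlapped the controls. Of the 36 genes, 29 were above 0 in cancer 1, between 7 and 14 in each of the other cancers and between 7 and 10 in each control. Cancer 1 alone held the highest level for 27 of the 30 genes above 0 in any sample (90.0%), against 13.2% of all 15640 genes above 0. The exceptions were Pdcd1 and Lta, where its level was shared with other samples, and Gata3, which was listed at 0 there.

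**Figure D1:**
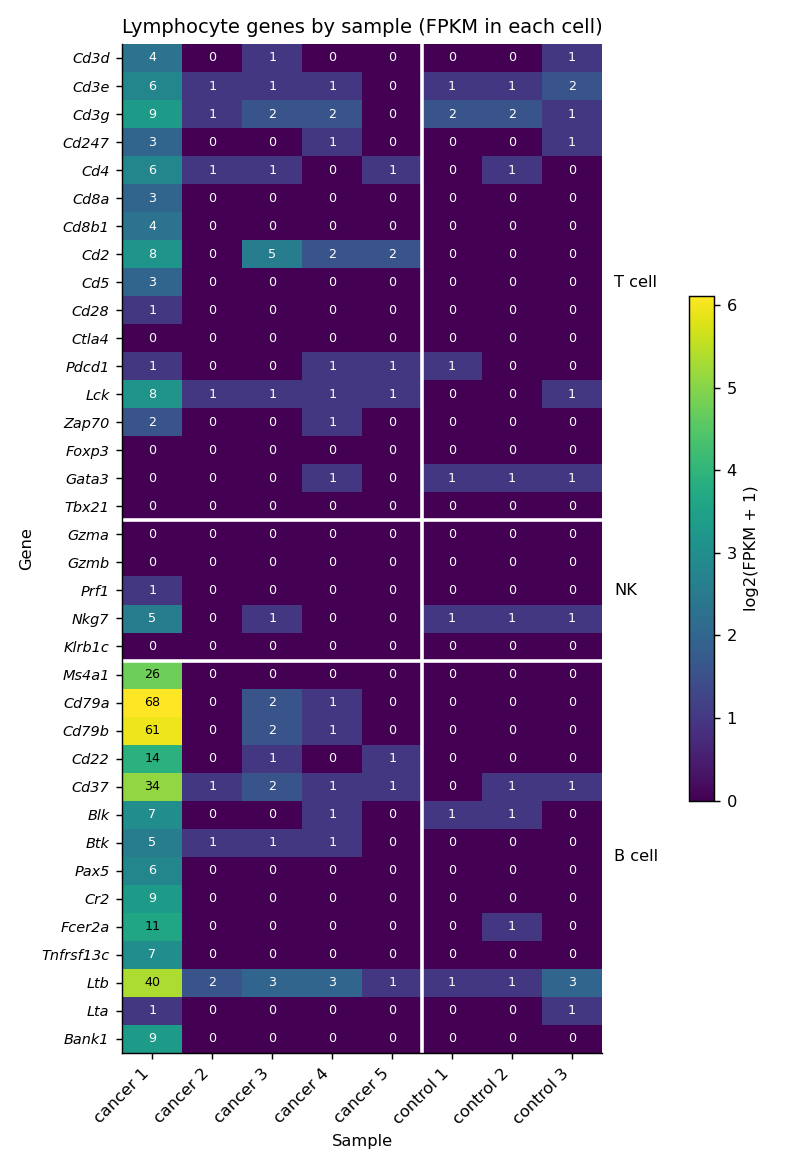
FPKM of each of the 36 lymphocyte genes (rows, by T cell, NK and B cell genes) in the 5 cancers and 3 controls (columns). Color is log2(FPKM + 1) and the number in each cell is FPKM, with levels of up to 68 in cancer 1 and of at most 5 in the other 7 samples.

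The B cell genes made up most of the sum in cancer 1, and the T cell genes came second. The 14 B cell genes summed to 298 in cancer 1, to 4, 11, 8 and 3 in the other cancers and to 2, 4 and 5 in the controls, so that cancer 1 was 27.1-fold above the next sample. For the 17 T cell genes the sums were 58 in cancer 1, 4, 11, 10 and 5 in the other cancers and 5, 5 and 7 in the controls, a 5.27-fold distance. The 5 NK and cytotoxic genes summed to 6 in cancer 1 and to 0 or 1 in each of the others. B cell genes were 82.3% of the lymphocyte sum in cancer 1 and between 25.0% and 50% in the other samples, whereas T cell genes were 16% in cancer 1 and between 47.8% and 62.5% elsewhere. These sums and shares are given as a description of 8 samples, without a test.

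**Figure D2:**
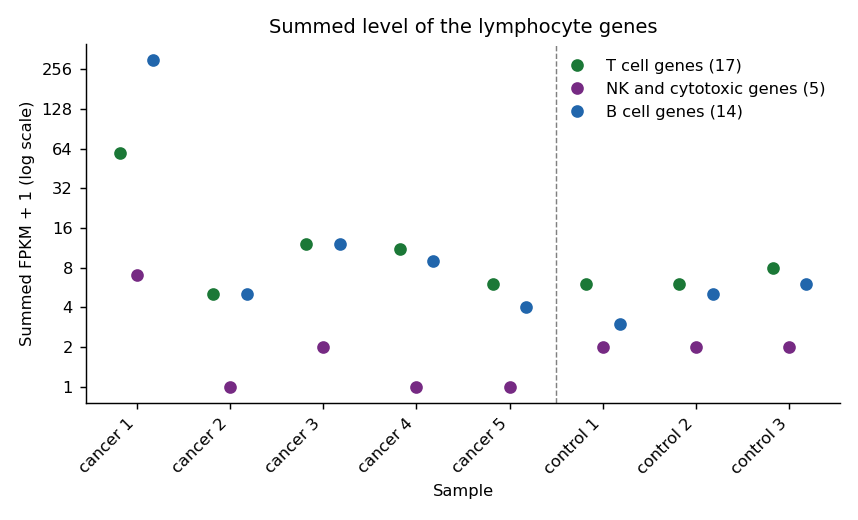
Summed FPKM of the 17 T cell, 5 NK and cytotoxic and 14 B cell genes in each sample, plotted as the sum plus 1 on a log axis, with 1 point per sample and gene group. In cancer 1 the B cell genes (298) lie above the T cell genes (58), while every sum in the other samples is 11 or less.

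Between the groups as a whole, no lymphocyte gene passed the test as higher in the cancers. Of the 36 genes, 17 reached an FPKM of 1 in 3 or more samples and were tested on log2(FPKM + 1), 9 of them T cell, 1 NK and 7 B cell genes, and 19 were too low, 6 of which were listed at 0 in every sample. With limma and an adjusted p under 0.05, 0 of the 17 were called higher and 1 lower, where 34.5% of all 14357 genes tested were called, 16.2% higher and 18.3% lower. At an unadjusted p under 0.05 from the same limma fit, 1 gene was higher (Cd2) and 1 lower (Gata3). Of all 14357 genes tested, 3245 were higher and 3639 lower at that unadjusted p. The two-sided exact permutation test, which cannot give a p below 0.018 with 5 against 3 samples, gave no p under 0.107 for any of the 36. For 0 of the 17 genes tested did the groups lie apart without overlap, against 14.4% of all genes tested with every cancer above every control and 19.8% with every cancer below.

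The median log2 fold change was 0.83 over the 17 genes tested, 0.27 over the T cell genes, 1.18 over the B cell genes and -0.28 for Nkg7, the NK gene tested, while the median of all genes was -0.04. Of the 17 genes, 5 passed the limit on low values only with cancer 1. Without it, 12 of the 36 genes were tested and 0 were called by limma, where 29.6% of all genes were called, 13.9% higher and 15.7% lower. At an unadjusted p under 0.05 from that limma fit, 3 of the 12 were higher and 2 lower. Of all 14125 genes tested without cancer 1, 3084 were higher and 3419 lower at that unadjusted p. The medians without cancer 1 were 0.17 for the T cell genes and 0.40 for the B cell genes. Expressing each library as TPM, with equal sums, shifted the median of all genes to 0.81 and made 93.1% of all calls higher in place of 47.0%. Relative to that shift the B cell genes had a median of 1.04 and the T cell genes one of -0.12, and 1 of the 17 lymphocyte genes tested, Cd2, was called higher and 0 lower, where 53.7% of all genes were called, 50% higher and 3.68% lower.

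**Figure D3:**
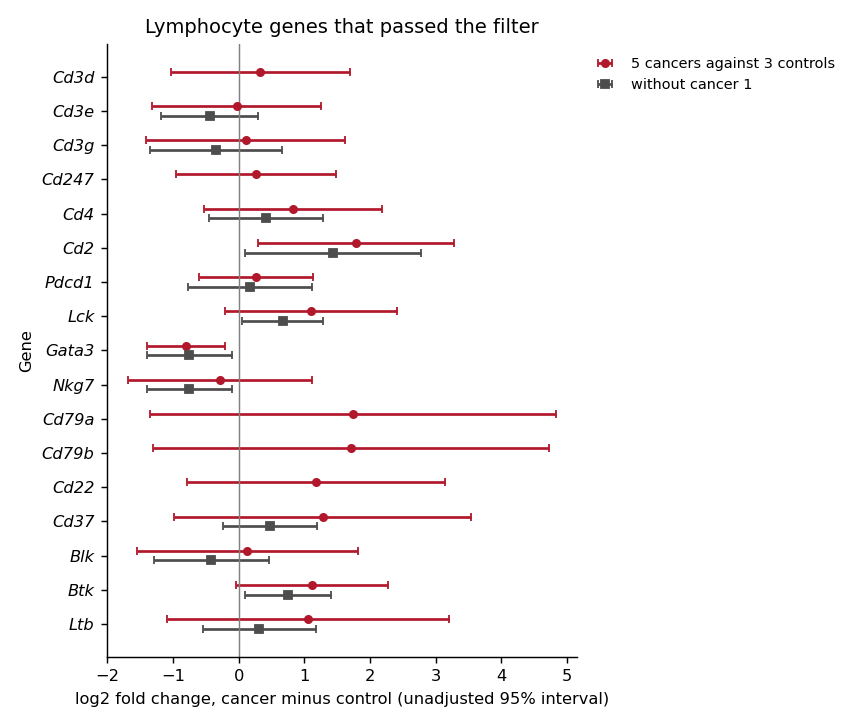
Log2 fold change of FPKM + 1, cancer minus control, for the 17 lymphocyte genes that passed the limit on low values, with unadjusted 95% intervals from limma. Circles are 5 cancers against 3 controls and squares the same without cancer 1, where 12 genes remained testable. The intervals of Cd79a and Cd79b are the widest, from -1.35 to 4.83 for Cd79a.

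Among the B cell genes, the signalling chains of the B cell receptor had the highest levels of all 36 genes. Cd79a (chromosome 7, 24897497 to 24901858, mm10) was measured at FPKM of 68, 0, 2, 1 and 0 in cancers 1 to 5 and was listed at 0 in every control. Cd79b (chromosome 11, 106311341 to 106314562) had 61, 0, 2, 1 and 0 in the cancers and was likewise listed at 0 in every control. Cancers 2 and 5 were thus at the level of the controls, and cancer 1 was 34.0-fold and 30.5-fold above cancer 3. The log2 fold changes were 1.74 ± 1.33 s.e. (limma adjusted p = 0.33) for Cd79a and 1.71 ± 1.30 s.e. (limma adjusted p = 0.32) for Cd79b. Neither gene passed the limit on low values without cancer 1.

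Genes for surface proteins of mature B cells were likewise highest in cancer 1. Ms4a1, which encodes CD20 (chromosome 19, 11249679 to 11266149), had an FPKM of 26 in cancer 1, with 0 listed for the 7 other samples. Cd22, an inhibitory coreceptor of the B cell receptor (chromosome 7, 30865404 to 30880342), was measured at FPKM of 14, 0, 1, 0 and 1 in the cancers and was listed at 0 in the controls. Fcer2a, the low-affinity IgE receptor CD23 (chromosome 8, 3680280 to 3694174), was measured at FPKM of 11 in cancer 1, 0 in the other cancers and 0, 1 and 0 in the controls. All 3 genes were high in cancer 1 alone, and of them Cd22 could be tested (log2 fold change 1.18 ± 0.85 s.e., limma adjusted p = 0.30). Cr2, which encodes complement receptors of B cells and follicular dendritic cells, stood at 9 in cancer 1 and at 0 elsewhere, and Tnfrsf13c, the receptor for the survival factor BAFF, at 7 and 0.

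Cd37, a tetraspanin of B cells that other leukocytes also carry, had low levels outside cancer 1 (chromosome 7, 45233632 to 45239340). Its FPKM was 34, 1, 2, 1 and 1 in the cancers, against 0, 1 and 1 among the controls. Cancer 1 lay 17-fold above cancer 3, and cancers 2, 4 and 5 shared their level with controls 2 and 3 (log2 fold change 1.28 ± 0.97 s.e., limma adjusted p = 0.32, and 0.48 with an adjusted p of 0.26 without cancer 1). Ltb, which encodes the lymphotoxin beta that lymphocytes display to lymphoid stroma (chromosome 17, 35194507 to 35196305), was measured at FPKM of 40, 2, 3, 3 and 1 in the cancers, against 1, 1 and 3 among the controls. Cancers 2 to 5 spanned the same values as the controls, and cancer 1 was 13.3-fold above the next sample (log2 fold change 1.06 ± 0.93 s.e., limma adjusted p = 0.39, and 0.31 with an adjusted p of 0.53 without cancer 1). Lta, its soluble partner and neighbor on chromosome 17, was listed at 1 in cancer 1 and in control 3 and at 0 in the others.

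The genes for intracellular proteins of B cells were between 5 and 9 in cancer 1. Pax5, the transcription factor that maintains B cell identity, was at 6 in cancer 1 and Bank1, an adaptor of B cell receptor signalling, at 9, and both were listed at 0 in every other sample. Blk, a Src-family kinase of B cells, was at 7 in cancer 1 and at 0 or 1 elsewhere, controls included (log2 fold change 0.13 ± 0.72 s.e., limma adjusted p = 0.90, and -0.42 with an adjusted p of 0.41 without cancer 1). Btk, the kinase of B cell receptor signalling that myeloid cells also express, ranged from 0 to 5 in the cancers and was listed at 0 in each control. The log2 fold change was 1.12 ± 0.50 s.e. (limma adjusted p = 0.11), and its adjusted p was 0.047 when cancer 5, the cancer listed at 0, was left out. Of the 14 B cell genes, 14 were above 0 in cancer 1, where 13 reached at least 5, and in the other 7 samples the highest level of any of them was 3.

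Among the T cell genes, the chains of the CD3 complex were present in cancer 1 and at low levels on both sides of the comparison. Cd3g (chromosome 9, 44969572 to 44980431) was measured at FPKM of 9, 1, 2, 2 and 0 in the cancers, against 2, 2 and 1 among the controls. Cancers 2 to 5 did not exceed the controls, and the log2 fold change was 0.11 ± 0.65 s.e. (limma adjusted p = 0.91), or -0.35 without cancer 1 (adjusted p = 0.55). Cd3d and Cd3e, which lie beside it on chromosome 9, and Cd247, which encodes the zeta chain, were at 4, 6 and 3 in cancer 1 and between 0 and 2 in the other samples, with adjusted p between 0.68 and 0.97. The CD3 genes were thus 3.0-fold to 4.5-fold above the next sample in cancer 1.

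The bases before the transcription start are shown for Cd37, Ltb and Cd3e, a tetraspanin, a cytokine and a receptor chain. They are examples of members high in cancer 1 and above 0 in most other samples, as Cd3g and Lck also were. The 3 windows are not typical of the members, since each holds the core marked below, which 12 of the 35 member windows hold. Whether these bases bear on the levels in cancer 1 was not tested. RefSeq starts on GRCm38.p6 (mm10) were available for 29 of the 36 genes, with 35 windows of 250 bases before the start. The windows below are chr7:45238840-45239089 on the minus strand for Cd37, chr17:35194257-35194506 on the plus strand for Ltb and chr9:45009612-45009861 on the minus strand for Cd3e, each written 5′ to 3′ in the direction of the gene. They end at the RefSeq start used, which for Cd37 and Cd3e lies inside the locus given with the FPKM, so that the whole Cd37 window and the bases of the Cd3e window nearest to its start fall within that locus. Capitals mark GAGGAA, the core that PU.1 and other ETS factors of leukocytes bind, or its reverse complement TTCCTC.
Cd37: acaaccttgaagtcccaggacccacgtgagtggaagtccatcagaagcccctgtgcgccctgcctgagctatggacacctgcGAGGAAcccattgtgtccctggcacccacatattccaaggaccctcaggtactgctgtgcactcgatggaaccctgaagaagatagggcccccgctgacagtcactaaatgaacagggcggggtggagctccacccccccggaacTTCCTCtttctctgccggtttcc
Ltb: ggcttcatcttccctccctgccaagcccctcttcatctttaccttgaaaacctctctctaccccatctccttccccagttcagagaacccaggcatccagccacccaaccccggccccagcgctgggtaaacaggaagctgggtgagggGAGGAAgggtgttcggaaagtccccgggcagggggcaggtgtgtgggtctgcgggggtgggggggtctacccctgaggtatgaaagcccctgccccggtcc
Cd3e: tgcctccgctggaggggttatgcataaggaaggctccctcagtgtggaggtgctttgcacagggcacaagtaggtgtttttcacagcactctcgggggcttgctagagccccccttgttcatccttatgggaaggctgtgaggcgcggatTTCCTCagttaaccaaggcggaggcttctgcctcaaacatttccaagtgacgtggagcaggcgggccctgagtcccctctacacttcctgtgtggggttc
Cd37 held 2 copies of the core, 168 and 23 bases before its start, Ltb held 1, 101 bases before, and Cd3e held 1, 100 bases before. GAGGAA was found on either strand in 12 of the 35 windows of the lymphocyte genes (34.3%) and in 23.3% of 32851 windows of all genes. The octamer ATTTGCAT was found in 0 of the 35 windows and in 1.6% of all, the EBF-type CCCNNGGG in 11.4% and in 11.8%, and the RUNX-type TGTGGT in 25.7% and in 14%, each on both strands. These letter matches are a description of the windows, and several windows belong to the same gene.

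The coreceptors of both T cell classes were found in cancer 1. Cd4 was at 6 in cancer 1 and at 0 or 1 in the others (log2 fold change 0.83 ± 0.58 s.e., limma adjusted p = 0.29, and 0.42 with an adjusted p of 0.41 without cancer 1). Cd8a and Cd8b1, the chains of the CD8 coreceptor, stood at 3 and 4 in cancer 1, with 0 listed for the 7 other samples. Cd5, a surface inhibitor of T cell receptor signalling, was at 3 and the costimulatory receptor Cd28 at 1 in cancer 1, and both were listed at 0 elsewhere. Of the checkpoint receptors, Ctla4 was listed at 0 in all 8 samples and Pdcd1, which encodes PD-1, at 0 or 1, with 1 in cancers 1, 4 and 5 and in control 1 (adjusted p = 0.59 from limma).

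Cd2 had the highest level of any member outside cancer 1. It encodes an adhesion receptor of T and NK cells (chromosome 3, 101275908 to 101287939), and its FPKM was 8, 0, 5, 2 and 2 in cancers 1 to 5 and 0 in each control. Cancers 1, 3, 4 and 5 lay above the controls, and cancer 2 was at their level. The log2 fold change was 1.78 ± 0.64 s.e. (limma adjusted p = 0.063; two-sided exact permutation p = 0.107), and without cancer 1 it was 1.44 (adjusted p = 0.092). With cancer 2 left out the adjusted p was 0.0099. In cancer 3, where Cd2 was at 5, Cd3d and Cd3e were at 1 and Cd3g at 2.

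Lck, the kinase that starts T cell receptor signalling (chromosome 4, 129548344 to 129573641), was measured at FPKM of 8, 1, 1, 1 and 1 in the cancers, against 0, 0 and 1 among the controls. Cancer 1 was 8.0-fold above the next level, and cancers 2 to 5 were equal to control 3 (log2 fold change 1.10 ± 0.56 s.e., limma adjusted p = 0.16, and 0.67 with an adjusted p of 0.092 without cancer 1). Zap70, which acts downstream of Lck, was at 2 in cancer 1, at 1 in cancer 4 and at 0 elsewhere. Foxp3 and Tbx21, the transcription factors of regulatory and of type 1 helper T cells, were listed at 0 in all 8 samples. Gata3, a transcription factor of type 2 helper T cells that epithelial cells also express (chromosome 2, 9857078 to 9887953), was measured at FPKM of 0, 0, 0, 1 and 0 in the cancers, against 1, 1 and 1 among the controls. Its log2 fold change of -0.80 ± 0.26 s.e. (limma adjusted p = 0.045; two-sided exact permutation p = 0.143) rests on a step of 1 FPKM, the smallest that the rounded values allow, and cancer 4 was at the level of the controls. The adjusted p was between 0.070 and 0.119 when leaving out any control or any cancer but the fourth, and Gata3 was at 0 in cancer 1.

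Of the 5 NK and cytotoxic genes, 2 were above 0 in any sample, and both were highest in cancer 1. Gzma and Gzmb, which encode granzymes, and Klrb1c, the NK1.1 antigen, were listed at 0 in all 8 samples. Prf1, which encodes perforin, was at 1 in cancer 1 and at 0 elsewhere. Nkg7, a protein of cytotoxic granules, was at 5 in cancer 1, at 0 or 1 in the other cancers and at 1 in each control (log2 fold change -0.28 ± 0.60 s.e., limma adjusted p = 0.73, and -0.75 with an adjusted p of 0.078 without cancer 1). A further list of 19 NK and cytotoxic genes held 2 that could be tested, 0 of them called by limma (also 0 at an unadjusted p under 0.05), and 13 listed at 0 in every sample. Among those 13 were Ifng, Fasl, Gzmk, Eomes and Ncr1, named after their values were seen.

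Other genes of the 3 lineages were listed beside the 36. Of 32 other T cell genes, 16 were tested, 6 were higher and 0 lower in the cancers by limma, where 16.2% of all genes tested were higher and 18.3% lower. Skap1, an adaptor of T cell adhesion, had FPKM of 17, 9, 13, 5 and 6 in the cancers, against 0 in each control, and rose with a log2 fold change of 3.34 ± 0.36 s.e. (limma adjusted p = 0.0013). Thy1 (log2 fold change 1.27 ± 0.31 s.e., limma adjusted p = 0.018), a surface protein of T cells and also of fibroblasts and neurons, and Tnfrsf9 (1.52 ± 0.47 s.e., limma adjusted p = 0.040), the costimulatory receptor 4-1BB, also lay above every control in every cancer, but both lost their call when any 1 control was left out (adjusted p between 0.051 and 0.112), and Tnfrsf9 also without cancer 3 (0.083). The rest of the calls, Lcp2, Lag3 and Havcr2, named after their values were seen, were at 0 in each control and at 1 to 3 in the cancers. Their calls rest on steps near the smallest that the rounded values allow. In cancers 2 and 5, where Skap1 was at 9 and 6, Cd3d, Cd3e and Cd3g were each at 0 or 1. Without cancer 1 the list again had 6 genes higher and 0 lower, where 13.9% of all genes tested were higher and 15.7% lower.

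Of 24 other B cell and plasma cell genes, 22 were present and 10 tested, and 1 was higher and 3 lower in the cancers by limma, where 16.2% and 18.3% of all genes tested were called, and the 4 calls became 2 without control 2. Cd40, a costimulatory receptor of B cells and other antigen-presenting cells, had FPKM of 5, 1, 3, 2 and 4 in the cancers, against 0 in the controls (log2 fold change 1.90 ± 0.35 s.e., limma adjusted p = 0.0067). Derl3, of the protein quality control of secretory cells, and Cd55, a complement regulator found on many cell types, were lower, with log2 fold changes of -1.59 ± 0.37 s.e. (limma adjusted p = 0.016) and -1.54 ± 0.38 s.e. (limma adjusted p = 0.019). Derl3 lost its call without control 3 (adjusted p = 0.065) and Cd55 without control 1 or 2 (0.072 and 0.064), and under TPM neither was called. Igj, the joining chain of secreted IgM and IgA, ran from 3 to 33 in the cancers and from 7 to 11 in the controls, with cancer 3 above cancer 1, and was named after its values were seen.

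Genes of antigen receptor signalling that other leukocytes share were tested for 21 of 25, with 3 higher and 2 lower, where 16.2% of all genes tested were higher and 18.3% lower. The 5 calls became 11 of 21 under TPM, where 53.7% of all genes were called, 2 with quantile normalization, 3 without cancer 3, cancer 5 or control 2 and 1 without control 1 or 3. The kinases Prkcb (log2 fold change 2.02 ± 0.45 s.e., limma adjusted p = 0.013) and Fyn (1.53 ± 0.46 s.e., limma adjusted p = 0.038) were higher, and the Ras activator Rasgrp1 was lower, with FPKM of 2, 2, 1, 2 and 1 in the cancers, against 6, 5 and 5 among the controls (-1.31 ± 0.21 s.e., limma adjusted p = 0.0041). The Prkcb call was lost without control 1 or 3 (0.058 and 0.055) and the Fyn call without cancer 3 or 5 or any control (0.069 to 0.119) and with quantile normalization (0.087), while the Rasgrp1 call was lost under TPM (-0.66, adjusted p = 0.072). Ptprc, which encodes the leukocyte antigen CD45, had FPKM of 21, 1, 5, 2 and 2 in the cancers, against 1 in each control. Cancer 1 was 4.2-fold above cancer 3, and the groups touched at the level of cancer 2 (log2 fold change 1.24 ± 0.72 s.e., limma adjusted p = 0.21).

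Of 21 genes above 0 that recruit T and B cells and mark lymphoid stroma, cancer 1 alone held the highest level for 9 (42.9%, against 13.2% of all genes). Of 22 such genes, 16 were tested, with 3 higher and 0 lower in the cancers, against 16.2% and 18.3% of all genes tested, and the 3 calls became 6 of 16 under TPM, where 53.7% of all genes were called, and 1 without control 1 or 3. The 3 were the chemokines Ccl28 (log2 fold change 2.40 ± 0.58 s.e., limma adjusted p = 0.018) and Cxcl12 (1.23 ± 0.19 s.e., limma adjusted p = 0.0036) and Tnfsf13b, which encodes BAFF (1.30 ± 0.43 s.e., limma adjusted p = 0.049). The Tnfsf13b call was lost without cancer 1, 3 or 4 or any control (adjusted p between 0.051 and 0.157) and with quantile normalization (0.107), and that of Ccl28 without any 1 control (0.057 to 0.061). Glycam1, a mucin-like protein of the high endothelial venules of lymph nodes, was at 148 in cancer 1, at 0 or 1 in the other cancers and at 0 in the controls. Cxcl13, the chemokine of B cell follicles, had FPKM of 98, 1, 3, 1 and 2 in the cancers, against 0 in the controls (adjusted p = 0.16, and 0.013 without cancer 1, from limma). Ccl19 and Ccl21a, chemokines of the T cell zone, were at 12 and 65 in cancer 1, and at 0 or 1 and at 3 to 20 in the other samples, where the reads of Ccl21a could be split among near-identical copies of the gene. Ccr7, a homing receptor of naive lymphocytes, was at 8 in cancer 1, with 0 listed for the 7 other samples. Other genes of the list went the other way, and Ccl20 (0), Ltbr (14), Cxcl16 (6), Ccl25 (0) and Tnfsf13 (1) were lower in cancer 1 than in any other sample. These genes and Glycam1, Cxcl13, Ccl19, Ccl21a and Ccr7 were named after their values were seen.

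The squamous and glandular marker sums were lowest in cancer 1, and the neuroendocrine sum lay within the range of the other cancers. The part of these markers in the result was not tested. The squamous epithelial markers summed to 2 in cancer 1, to between 31 and 3429 in the other cancers and to between 4623 and 7293 in the controls. The glandular markers summed to 1419 in cancer 1, to between 7270 and 83366 in the other cancers and to between 164255 and 248507 in the controls, and the gastric genes Muc5ac, Muc6, Gif, Atp4a and Atp4b were listed at 0 in cancer 1. These 5 genes and the squamous markers were thus at or near 0 in the sample with high lymphocyte genes, while the other 10 glandular markers were between 2 and 491 there. Tff2 was at 2, Pgc at 3, Krt19 at 13 and Tff1 at 26, each below every other cancer, and Krt8 was at 207 and Gkn1 at 491. The 5 gastric genes, Tff1, Tff2, Krt19 and Epcam were named after their values were seen. The epithelial gene Epcam was at 314 in cancer 1 and between 315 and 592 in the other cancers, and the neuroendocrine markers summed to 15922 in cancer 1 against 8251 to 18554 in the other 4 and 128 to 193 for control tissue, with 10 of 10 higher in the cancers by limma. Of 15 glandular markers 1 was higher and 3 were lower, namely Gkn1 (log2 fold change -3.81), Krt8 (-2.02) and Cdh1 (-1.78), and of 12 squamous markers 0 were higher and 3 lower, namely Lor (-5.62), Krt4 (-4.99) and Tgm3 (-3.29), where 16.2% of all genes tested were higher and 18.3% lower. Without cancer 1 the limma adjusted p was 0.061 for Krt8 and 0.051 for Krt4, and these genes except Tgm3 lost their call without at least 1 control (0.051 to 0.139). Krt8 and Krt4 also lost it under TPM (0.110 and 0.056), and Gkn1 and Krt4 with quantile normalization (0.218 and 0.056). The largest neuroendocrine changes were those of the secretory granule genes Chgb (8.30), Pcsk1 (7.12) and Scg3 (6.98).

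The complement genes C1qa, C1qb and C1qc, which macrophages express, summed to 143, 137, 279, 111 and 124 in cancers 1 to 5, against 31, 35 and 24 among the controls. Every cancer lay above every control, and cancer 1 was 0.513 times the level of cancer 3. C1qc rose with a log2 fold change of 2.33 ± 0.29 s.e. (limma adjusted p = 0.0019) and C1qa with 2.24 ± 0.30 s.e. (limma adjusted p = 0.0027), in every cancer relative to every control. Some other markers of this kind were highest in cancer 1. Of 27 pan-leukocyte and myeloid markers above 0, cancer 1 alone held the highest level for 11 (40.7%, against 13.2% of all genes). The macrophage and granulocyte lysozyme Lyz2, named after its values were seen, was at 252 in cancer 1 and at most 89 elsewhere. Of the 28 markers, 23 were tested, 8 were higher and 3 lower, where 16.2% and 18.3% of all genes tested were called, and the counts without cancer 1 were again 8 and 3. The 3 lower ones, Tpsb2, Cpa3 and Mcpt4, encode mast cell proteases, and Tpsb2 fell from 9, 9 and 6 among the controls to 0, 2, 0, 0 and 0 across the cancers. Kit, a receptor of mast cells and other cell types in the same list, had FPKM of 34, 16, 26, 16 and 51 in the cancers, against 7, 11 and 13 among the controls, and was higher (log2 fold change 1.29 ± 0.41 s.e., limma adjusted p = 0.044, and 0.081 without cancer 1). Cpa3, Mcpt4 and Kit were named after their values were seen. Of 16 fibroblast, muscle and endothelial markers, 4 were higher and 0 lower, where 16.2% and 18.3% of all genes tested were called, led by Pdgfrb of pericytes (log2 fold change 1.65) and the endothelial genes Cdh5 (1.56) and Pecam1 (1.47), all 3 of which lost their call without at least 1 control (limma adjusted p between 0.053 and 0.064).

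**Figure D4:**
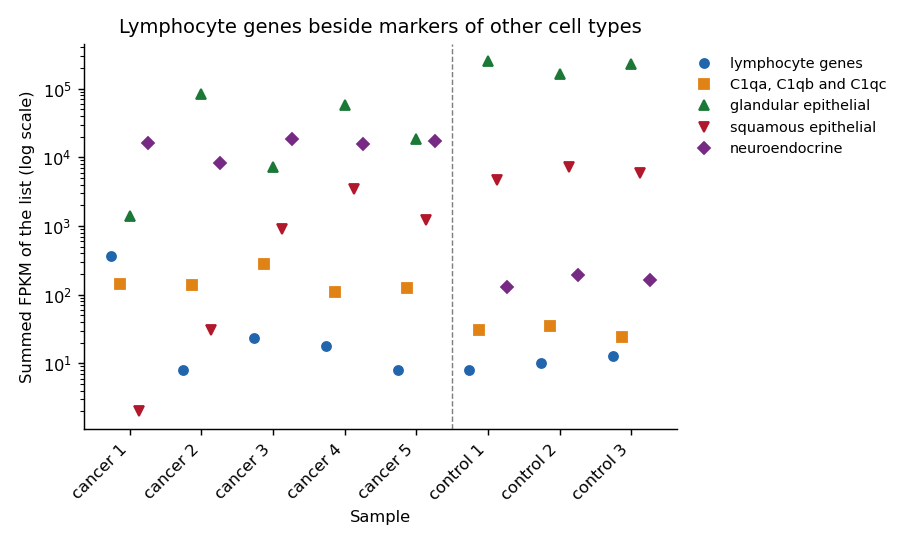
Summed FPKM (log axis) of the 36 lymphocyte genes and of 4 sets of other markers in each sample, with 1 point per set and sample. The lymphocyte sum is highest in cancer 1 (362), where the squamous sum is lowest (2), while the C1q genes lie between 111 and 279 in all 5 cancers and between 24 and 35 in the controls.

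Genes confined to 1 sample were counted over the whole table to set the members beside other genes. In cancer 1, 74 genes had FPKM of at least 5 and at most 1 in each other sample, and 12 of these were lymphocyte members, namely Cd4, Lck, Nkg7, Ms4a1, Cd22, Blk, Btk, Pax5, Cr2, Fcer2a, Tnfrsf13c and Bank1. By the same rule cancer 5 had 53 such genes, cancers 2, 3 and 4 had 12, 8 and 3, and the controls had between 0 and 3, with 0 members in any of them. Genes of this kind were thus found in cancer 5 as well as in cancer 1, and lymphocyte members were among them in cancer 1.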

How the data were processed

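RNA was sequenced from 5 cancers and 3 control tissues of the SCJ. The submitters' processing notes name cutadapt 1.8, TopHat2 2.0.13, Cuffnorm 2.2.1 and mm10, and the authors quantified annotated UCSC genes with cuffquant and generated FPKM with cuffnorm, whose normalization option is not given in the sources used here. FPKM were deposited after rounding to whole numbers, and were treated as a score because they are neither counts nor exact FPKM. The depth of each library is unknown, so counting error could not be given, and zeros are called listed at 0.

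A gene was tested if 3 or more samples had FPKM of 1 or more, and log2(FPKM + 1) was fitted with lmFit and eBayes (trend on) of limma 3.58.1 under R 4.3.3, using Benjamini-Hochberg adjustment over all genes tested and a threshold of 0.05. Fold changes on this scale understate changes of low genes. Each member was also given a two-sided exact permutation p from all 56 ways to split the samples. The controls came from 3 stomachs, and no source used here says whether the 5 cancers came from separate mice, so p-values measure the spread between these samples. The fit was tested on simulated data.

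The rule for the 36 members names symbols and sets no limit on measured values, but the members and the other gene lists were chosen with earlier results of these data known. Values in every sample are given for members with an adjusted p under 0.05 or with a mean FPKM of at least 2 in a group, and other members are given by their range. Of each other list up to 3 genes with the largest change past the threshold are named, plus Ptprc, Trp53 and Rb1, and Pgc, C1qb and the genes so marked in the text were named after their values were seen. Of 241 list entries, 238 were matched, 3 of them by an older symbol in RefSeq. Alternatives were TPM, quantile normalization, a pseudocount of 0.1, other filters, eBayes with no trend, sample weights (array weights), the replicate block and leaving out each sample in turn. Python 3.11.15 was used for summaries. A few genes of the other lists were tested and counted with the rest and are not reported here.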

Additional observations from a re-analysis of the deposited data

Results flagged for a closer look

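The level of each named gene and gene group was compared within the 5 cancers, and a value was listed where the gap between the highest or lowest cancer and its nearest neighbor was a large share of the whole range of the 5 (above 0.71). Of 63 such comparisons 36 were listed, and in 31 of the 36 the sample was cancer 1 at its highest. For continuous values chance alone lists about 1 in 20 (3.15 of 63). The values here are whole numbers, many of them near 0, so that rate does not hold for them. A gene at 1 in 1 cancer and at 0 in the others is always listed. The comparisons are not independent, because they share the same 5 libraries. Among the members above 0 anywhere, 26 of 30 were listed. Cancer 1 was the listed sample, at its highest, for 25 of the 30 (83.3%). By the same rule it was so for 531 of all 15640 genes above 0 (3.4%).

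Among the T cell genes the gap in cancer 1 was 0.75 of the range for Cd3d, 0.833 for Cd3e and Cd4, 0.778 for Cd3g and 1.0 for Cd8a, Cd8b1, Cd5, Cd28 and Lck. Gata3 was listed for cancer 4 (1.0), where it stood at 1 FPKM and the other cancers at 0. Of the NK and cytotoxic genes, Nkg7 (0.8) and Prf1 (1.0) were listed for cancer 1.

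Of the B cell genes all 14 were listed for cancer 1. The gap was 0.971 of the range for Cd79a, 0.967 for Cd79b, 0.929 for Cd22, 0.97 for Cd37, 0.857 for Blk, 0.8 for Btk and 0.949 for Ltb. It was 1.0 for Ms4a1, Pax5, Cr2, Fcer2a, Tnfrsf13c, Lta and Bank1, which were listed at 0 in the other 4 cancers. The summed FPKM gave 0.87 for the T cell genes, 0.833 for the NK and cytotoxic genes and 0.973 for the B cell genes. Values of 1.0 for Cd28, Lta and Prf1 rest on a step of 1 FPKM.

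Among the other named genes, cancer 1 was also apart for Ptprc (0.8), Fyn (0.75) and Pecam1 (0.833), an endothelial adhesion molecule. Tnfrsf9 was listed for cancer 5 (0.833), Tpsb2 for cancer 2 (1.0), and C1qc (0.841) and C1qa (0.786) for cancer 3.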

How the results depend on the processing

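Over all alternatives, results for single members stayed on their side of 0 and of the threshold in 209 cases, reversed in 19, lost a call in 9 and gained one in 7, and the cause was not tested. The log2 fold change of Cd3e turned to 0.49 with TPM, 0.072 with array weights and 0.41 with the replicate block, and ranged from -0.44 to 0.26 with 1 sample left out. That of Cd3g turned to -0.19 with quantile normalization and -0.33 with a pseudocount of 0.1 (range -0.35 to 0.48 with 1 sample left out), and that of Nkg7 to 0.049 with TPM and 0.19 with the block. Blk turned to -0.034 with quantile normalization, -0.38 with the pseudocount and -0.22 with array weights (range -0.42 to 0.33), and Trp53 to 0.86 with TPM (adjusted p = 0.020 from limma), 0.12 with quantile normalization and 0.027 without cancer 1, 3 or 5 (range -0.29 to 0.027). Cd2 was called with TPM (adjusted p = 0.034 from limma), a pseudocount of 0.1 (0.048) and array weights (0.0035), and Lck (0.036) and Btk (0.028) with array weights.

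Members called higher, 0 in the report, numbered 1 with TPM, 1 with a pseudocount of 0.1, 3 with array weights and 0 to 1 with 1 sample left out. Members called lower, 1 in the report, numbered 0 with TPM, 0 with every gene above 0 tested, 0 with a mean FPKM of at least 5 and 0 to 1 with 1 sample left out. The T cell genes had 1 call in the report, 2 with the pseudocount, 0 with either other filter, 3 with array weights and 0 to 1 with 1 sample left out, and the B cell genes had 0, 1 with array weights and 0 to 1. NK genes had 0 calls in every alternative. The distance of cancer 1 from the next sample in the NK genes was 1.81 as log2 of the summed FPKM plus 1 and 0.52 as a mean of log2(FPKM + 1).

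The 4948 calls over all genes became 7704 with TPM and 8148 with array weights, the 2326 higher ones 7176 and 3909, and 1244 with a mean FPKM of at least 5, and the 2622 lower ones 528 and 4239. With 1 sample left out they ranged from 2490 to 5252, 1369 to 2466 and 1121 to 2786. The 50 calls in the neighboring lists became 83 with array weights and ranged from 28 to 58. Same-numbered cancers and controls did not deviate together (r of -0.021, -0.194 and -0.104). These correlations gave no sign that the numbers pair the samples, but they cannot exclude a pairing. With the replicate block there were 1534 calls, 982 higher and 552 lower, 20 in the neighboring lists, and the counts of members called were 0 higher and 1 lower as in the report. A mean FPKM of at least 5 gave no value for 13 of the 17 members tested, and leaving out cancer 1 gave none for 5.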

Other observations

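Some genes outside the lists shared the pattern of the lymphocyte members, and all of them were chosen after their values were seen. The adipocyte genes Adipoq (49), Retn (18), Plin1 (13) and Adig (12) had these FPKM in cancer 1 and 0 or 1 in each of the 7 other samples. Genes of antigen presentation and lymphocyte regulation did so too, with Ptprcap at 27, Gimap3 at 15, H2-Oa at 12, Fcrl1 at 11, Ciita at 9, H2-Ob at 8, Btla at 7 and Il21r at 7 in cancer 1 and 0 or 1 elsewhere. These values come from 1 library. Of these genes, Ptprcap, Gimap3 and H2-Oa reached the limit on low values and were not called between cancers and controls (limma adjusted p of 0.67, 0.33 and 0.61).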
